A study of Mus musculus with 6 samples.

Results

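A set of 8 genes on a stretch of mouse chromosome 14 was followed by name in an RNA sequencing table of inguinal adipose tissue (iAT). They are *1700112E06Rik* (now called *Lrmda*), *Dlg5*, *Ppif*, *Plac9a*, *Plac9b*, *Tmem254b*, *Duxbl2* and *Duxbl3*, matched by symbol, 8 of the 19831 genes listed. The tissue was taken at postnatal day 6 and comprised 3 wild-type (WT) and 3 Npffr1-KO samples, the latter lacking neuropeptide FF receptor-1, which *Npffr1* encodes. The study's methods describe its own young mice as male C57BL/6, without saying whether this covers these samples. Litter and the way the receptor was ablated are not stated, and neither alleles nor copy number of the stretch were measured. The 8 genes were chosen by their position and by the deposited values of this very comparison, in which they differed between the genotypes. All differences between WT and Npffr1-KO are therefore descriptions, and no test was run on them.

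The stretch holds unrelated single genes at one end and a run of duplicated genes at the other. Segmental duplication leaves neighbouring copies that are nearly or fully alike, and short sequencing reads from such copies cannot be assigned to one of them. *Lrmda* encodes a leucine-rich repeat protein needed for melanocyte differentiation. *Dlg5* encodes a scaffold of the membrane-associated guanylate kinase (MAGUK) family that acts in cell polarity and adhesion. *Ppif* encodes cyclophilin D, the prolyl isomerase of the mitochondrial matrix that promotes opening of the permeability transition pore. The *Plac9* genes encode a small secreted protein, the *Tmem254* genes a small membrane protein, and the *Duxbl* genes double homeobox proteins, which bind DNA.

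In the GENCODE M21 annotation of genome build GRCm38 the 8 genes spread over 4.25 Mb. The first is *1700112E06Rik* at chr14:22019712-23056085 on the plus strand, a protein-coding gene that covers 1036374 bases. *Dlg5* lies at chr14:24133953-24245920 on the minus strand and *Ppif* at chr14:25694154-25700468 on the plus strand. The duplicated genes follow within 382 kb. Read from low to high coordinates, a first unit holds *Plac9a* (chr14:25887506-25903100), *Tmem254a* (chr14:25923300-25927672), *Cphx1* and *Duxbl1* (chr14:25978577-25990088). The second unit holds the *Plac9*-like gene *Gm9780*, *Tmem254c* (chr14:26063919-26067355), *Cphx2* and *Duxbl2* (chr14:26118349-26129763). The third unit holds *Plac9b* (chr14:26167405-26182480), *Tmem254b* (chr14:26203369-26207041), the end of *Cphx3* and *Duxbl3* (chr14:26257962-26269436). As annotated, *Cphx3* (chr14:26082297-26235744) starts inside *Cphx2* (chr14:26081516-26096127) in the second unit and runs across *Duxbl2*, *Plac9b* and *Tmem254b*. In each unit the *Plac9* and *Tmem254* genes are on the minus strand and the *Duxbl* gene is on the plus strand. The units repeat at nearly equal steps: the starts of *Duxbl1* and *Duxbl2* are 139772 bases apart, those of *Duxbl2* and *Duxbl3* 139613 bases. *Npffr1* itself is on chromosome 10.

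The coding sequences did not differ within a family. *Plac9a*, *Plac9b* and *Gm9780* share 324 of 324 coding bases, *Tmem254a*, *Tmem254b* and *Tmem254c* 387 of 387, and *Duxbl1*, *Duxbl2* and *Duxbl3* 1050 of 1050. The stretches below, read from GRCm38, show what a read from any copy carries. Each runs 5′ to 3′ from its start codon, given in capitals, and stops before the end of the coding sequence.
Plac9a, Plac9b and Gm9780, coding bases 1 to 300: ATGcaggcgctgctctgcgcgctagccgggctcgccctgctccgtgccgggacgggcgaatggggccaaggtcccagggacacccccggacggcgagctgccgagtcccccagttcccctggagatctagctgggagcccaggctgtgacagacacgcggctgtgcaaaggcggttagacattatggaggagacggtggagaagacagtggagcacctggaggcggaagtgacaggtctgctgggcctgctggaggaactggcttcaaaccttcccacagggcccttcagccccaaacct
Tmem254a, Tmem254b and Tmem254c, coding bases 1 to 240: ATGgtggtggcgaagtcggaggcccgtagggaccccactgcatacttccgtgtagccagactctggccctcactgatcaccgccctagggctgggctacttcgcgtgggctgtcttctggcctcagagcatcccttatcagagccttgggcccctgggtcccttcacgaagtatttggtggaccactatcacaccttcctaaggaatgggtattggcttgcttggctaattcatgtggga
Duxbl1, Duxbl2 and Duxbl3, coding bases 1 to 300: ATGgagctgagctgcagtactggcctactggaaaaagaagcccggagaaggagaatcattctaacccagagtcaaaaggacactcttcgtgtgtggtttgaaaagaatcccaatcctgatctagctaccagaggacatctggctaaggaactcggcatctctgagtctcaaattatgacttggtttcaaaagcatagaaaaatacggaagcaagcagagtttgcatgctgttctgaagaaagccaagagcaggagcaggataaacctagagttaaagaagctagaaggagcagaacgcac
A read inside any of these stretches fits every copy of its family equally well.

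Outside the coding sequence the copies differ in part. All transcripts of a gene were divided into words of 31 bases, and the words that also occur in another annotated gene were counted. Of the words of *Tmem254b* and *Duxbl2*, 100% occur in other genes, so neither gene has a word of its own. *Plac9a* has 6 words of its own among 1747, and 99.7% are shared. *Plac9b* shares 96.6% of its words and *Duxbl3* 93.4%. The single genes stood apart: 0.0366% of the words of *1700112E06Rik* and 1.17% of those of *Dlg5* occur elsewhere. For *Ppif* the share is 16.9%, all with 1 other gene. That gene is *Ppifos*, which runs antisense to *Ppif* and overlaps it over 921 exon bases, or 18.3% of the exon bases of *Ppif*. Since no source states that counting used the strand, reads of *Ppif* and *Ppifos* cannot be told apart in that overlap.

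**Figure D1:**
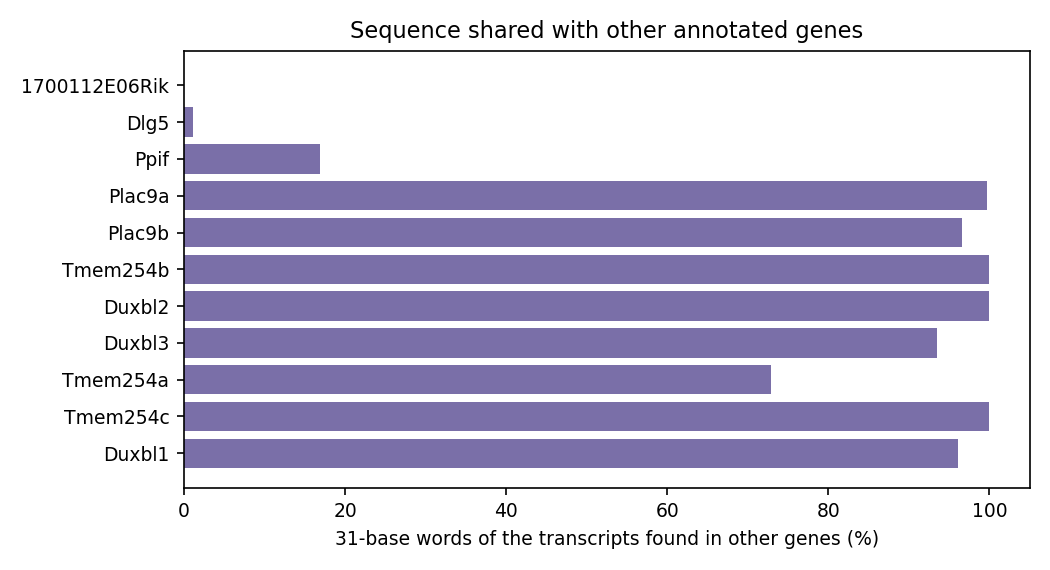
Each bar gives the share of a gene's 31-base transcript words, in percent, that occur in another annotated gene of GENCODE M21. The members *Plac9a*, *Plac9b*, *Tmem254b*, *Duxbl2* and *Duxbl3* lie between 93.4% and 100%, and the single genes *1700112E06Rik*, *Dlg5* and *Ppif* between 0.0366% and 16.9%.

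The table gives 1 value per gene and genotype, a read count normalized for library size. The mean of the WT and the Npffr1-KO value is the mean over all 6 libraries, and their ratio is a fitted fold change of the authors, which lies nearer to 1 than the ratio of the library means in genes with few reads. From the digits of the values the whole reads of each library could be worked out for genes with few reads, and here for *1700112E06Rik*, *Duxbl2* and *Duxbl3*. The libraries found in this way are called A, B and C within each genotype and are not tied to animals by number. Their size factors ran from 0.916 to 1.04, and their total read counts are unknown. *Npffr1* had 1, 0 and 5 reads in WT libraries A, B and C and 0 in all 3 Npffr1-KO libraries, too few to check the labels. Npffr1-KO library A stood apart by skeletal muscle transcripts. Over 5 of the 10 muscle markers, those with known reads, the sum was 497 normalized reads there, 1.01 and 6.55 in the other Npffr1-KO libraries, and 3.86 to 10.8 in WT. For *1700112E06Rik* and the *Duxbl* genes the ratios are also given without that library.

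The tissue carried the markers of fat. In WT the adipocyte markers *Car3*, *Fabp4* and *Lpl* were at 261767, 156285 and 136814 normalized counts, and all 10 adipocyte markers were listed, the lowest at 3386. Of the adipocyte markers, 9 of 10 stayed within 1.5-fold and 1, the hormone gene *Lep*, was higher, which is named after its value was seen. Among markers of other cell types with a mean of at least 10, 4 of 7 of skeletal muscle and 3 of 7 of lymphocytes were at least 1.5-fold higher in Npffr1-KO. Where reads are known, the muscle signal was that of library A: *Ckm* had 2, 3 and 2 reads in WT and 215, 1 and 6 in Npffr1-KO. All 8 of progenitors and fibroblasts (median log2 ratio -0.22), 6 of endothelium (-0.39), 6 of macrophages (0.13) and 5 of erythroid cells (0.22) stayed within 1.5-fold. The keratinocyte markers, 2 of 6 with that mean, stayed within 1.5-fold too, with a median of -0.30. The part of these cells in the members' differences was not tested.

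Levels of the members spanned a wide range. Per kb of listed gene length, the WT value was highest for *Plac9b*, at 3066 normalized counts per kb, followed by *Tmem254b* at 2447 and *Plac9a* at 2016. *Ppif* had 338 per kb, *1700112E06Rik* 170, *Dlg5* 122, and *Duxbl2* and *Duxbl3* 45.9 each. Which neighbours in this order differ beyond the spread between animals cannot be said, because the table holds 1 value per genotype. The listed lengths of the copies differ (*Plac9a* 484 bases, *Plac9b* 1020 bases), and their levels depend on how reads common to the copies were divided.

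The 8 members all passed the minimum used here, a mean of 10 over both genotypes. Of them, 6 were at least 1.5-fold lower in Npffr1-KO, 1 (*Ppif*) was at least 1.5-fold higher, and *Dlg5* was within 1.5-fold. Over all 15309 genes with that mean, 3.12% were as much lower and 2.78% as much higher. The share among the members follows from how they were chosen. The median log2 ratio of Npffr1-KO to WT was -0.78 over the members and 0.01 over all genes tested. By deposited value, which is not scaled by length, *1700112E06Rik* lay above *Duxbl2* in WT and below it in Npffr1-KO. *Ppif* likewise lay below *Dlg5* and *Plac9a* in WT and above both in Npffr1-KO. Per kb none of these orders changed. In Npffr1-KO *1700112E06Rik* had 30.8 per kb and *Duxbl2* 19.2, while *Plac9a* had 1127, *Ppif* 548 and *Dlg5* 88.6.

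**Figure D2:**
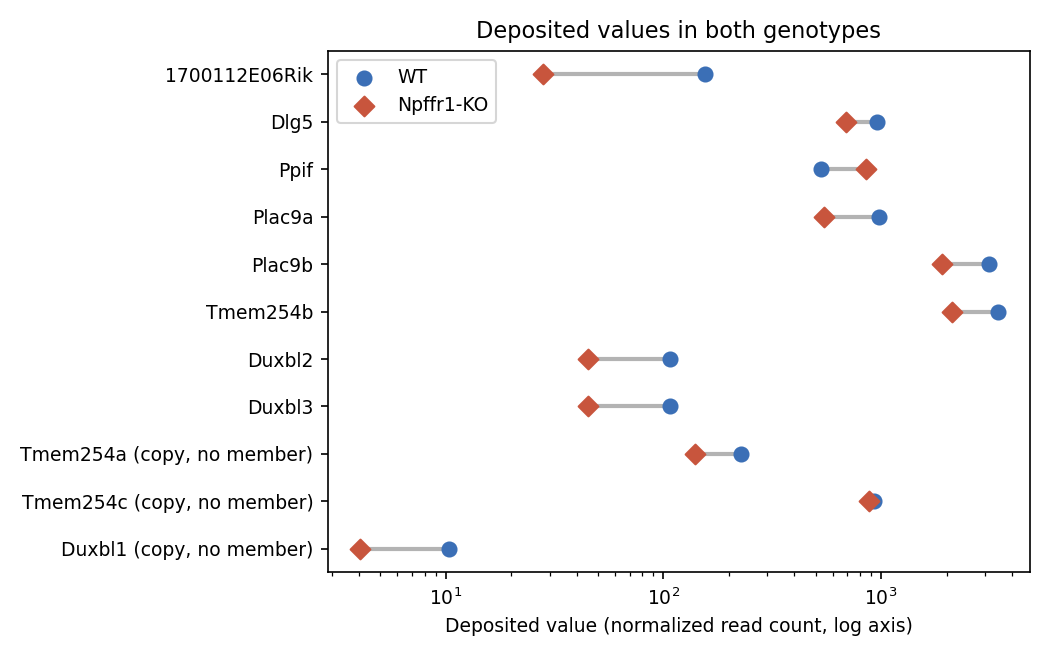
Deposited values in normalized read counts, on a log axis, in WT (circles) and Npffr1-KO (diamonds) for the 8 members and 3 listed copies. The widest gap is that of *1700112E06Rik*, from 155 to 28.1, and *Ppif* alone among them is higher in Npffr1-KO, at 856 against 528.

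*1700112E06Rik* showed the widest difference. Its WT libraries A, B and C held 161, 174 and 153 reads, and its Npffr1-KO libraries 17, 16 and 35. This was 1 of 2 matching combinations, kept by a rule on the direction and size of the deposited log2 ratio. The direction and least size of the library ratio follow from that rule, and whether the combination is the right one was not tested. All 3 Npffr1-KO libraries lay below all 3 WT libraries, and library C, with the most reads among the Npffr1-KO libraries, had the smallest size factor. Divided by size factors the means were 159 ± 9.80 (SD, n = 3) in WT and 23.6 ± 12.7 (SD, n = 3) in Npffr1-KO, a log2 ratio of -2.76. Without Npffr1-KO library A, which carried the muscle transcripts, the log2 ratio was -2.55. The deposited values were 155 and 28.1, a log2 ratio of -2.46, and 1 of the 15309 genes tested had a lower one. As background, the Npffr1-KO libraries all lay below the WT libraries in 7.82% of the 1126 genes with a mean of 10 to 25, whose reads are known throughout.

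The melanocyte genes were set beside *1700112E06Rik* because of its role. Of 16 melanocyte and melanosome genes with a mean of at least 10, 15 stayed within 1.5-fold and 1 was lower, and the median log2 ratio was -0.02. The lower one was *Sox10*, the transcription factor of the neural crest, with 719 normalized counts in WT and 407 in Npffr1-KO (log2 ratio -0.82). It is named after its value was seen. The highest of the list were the receptor gene *Ednrb* with 2556 in WT and 2075 in Npffr1-KO, the trafficking gene *Ap3b1* with 1890 and 1922, and *Bloc1s1* with 1572 and 1864. Over 4 melanocyte markers with known reads (*Mlana*, *Pmel*, *Tyrp1* and *Dct*) the libraries held 90.8 to 142 normalized reads in WT and 73.7 to 121 in Npffr1-KO. *Pmel* alone held 78.2 to 127 in WT. Its reads were 1 of 2 matching combinations, kept by the direction and size of its deposited log2 ratio. Without library A the Npffr1-KO libraries held 73.7 and 100.4. These ranges overlap. The highest melanocyte marker, *Tyr*, was above the search limit, with deposited values of 121 in WT and 115 in Npffr1-KO. Because *1700112E06Rik* was chosen for its difference, its own ranges are not weighed against these. The part of melanocytes in its difference was not tested. In whole tissue, fewer cells that express a gene and less RNA per cell cannot be told apart.

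*Dlg5* had 953 normalized counts in WT and 693 in Npffr1-KO, a log2 ratio of -0.46. Its listed length of 7820 bases is the greatest among the members. Long genes as a class were lower in Npffr1-KO, with a median log2 ratio of -0.15 in the length class of *Dlg5*, and against this class *Dlg5* stood at -0.32. Of 33 MAGUK genes and partners of Dlg5 that were tested, 3 were lower, 1 was higher and 29 were within 1.5-fold, with a median of -0.13. The lower ones were the tight junction scaffold *Tjp1* (log2 ratio -0.65), the kinase *Mark1* (-0.61) and the hedgehog effector *Gli1* (-1.16), and the higher one was *Tjp3* (0.64). *Mark1*, *Gli1* and *Tjp3* are named after their values were seen. The most abundant gene of the list, *Ctnnb1*, had 11120 in WT and 10111 in Npffr1-KO.

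*Ppif* was the member that was higher, with 528 normalized counts in WT and 856 in Npffr1-KO, a log2 ratio of 0.70. Genes of its length class had a median of 0.12, and against them *Ppif* stood at 0.58, just under 1.5-fold. Its antisense partner *Ppifos* went the other way in the deposited values, 40.7 against 31.1. Reads of *Ppifos* were 45, 53 and 30 in WT and 41, 30 and 19 in Npffr1-KO, so the groups overlapped. The log2 ratio of the library means was -0.47, and -0.71 without Npffr1-KO library A. Its WT value was 40.7 where that of *Ppif* was 528. Of the 22 other genes of the permeability transition and the cyclophilins, all 22 stayed within 1.5-fold. Their median log2 ratio was 0.21, and the cyclophilin A gene *Ppia* (25442 in WT, 33482 in Npffr1-KO), the phosphate carrier gene *Slc25a3* (8460 and 9703) and the ADP/ATP carrier gene *Slc25a5* (6088 and 7780) were the highest.

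*Plac9a* had 976 normalized counts in WT and 546 in Npffr1-KO, a log2 ratio of -0.84. *Plac9b* had 3127 and 1895, a log2 ratio of -0.72. Both were lower in Npffr1-KO, by 1.79-fold and 1.65-fold. Because the copies share their coding sequence, the family was also summed. The summed *Plac9* value was 4103 in WT and 2441 in Npffr1-KO, a log2 ratio of -0.75, and *Plac9b* held 76.2% of it in WT and 77.6% in Npffr1-KO. Of their 31-base words, *Plac9a* has 6 of 1747 to itself and *Plac9b* 44 of 1276. The shares and the ratio of each copy thus depend on how common reads were divided. The third copy of the coding sequence, *Gm9780*, is not analysed here. Short genes as a class were higher in Npffr1-KO, with a median of 0.27 in the length class of *Plac9a* and 0.21 in that of *Plac9b*. Against genes of like length *Plac9a* stood at -1.10 and *Plac9b* at -0.93.

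*Tmem254b* had 3435 normalized counts in WT and 2121 in Npffr1-KO, a log2 ratio of -0.70. The deposited values of its copies were not alike. *Tmem254a* had 227 and 139, a log2 ratio of -0.71, and *Tmem254c* had 928 and 877, a log2 ratio of -0.08. Summed, the family stood at 4590 in WT and 3137 in Npffr1-KO, a log2 ratio of -0.55, which is 1.46-fold. *Tmem254b* held 74.8% of the sum in WT and 67.6% in Npffr1-KO, and *Tmem254c* 20.2% and 28.0%. The shares and the log2 ratio of each copy depend on how reads common to the copies were divided, since neither *Tmem254b* nor *Tmem254c* has a 31-base word of its own.

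The upstream sequences of the *Tmem254* copies are shown for their likeness alone. The unlike log2 ratios of the copies depend on how common reads were divided and are not read against these sequences. They are the 250 bases before the first annotated start in the RefSeq table of build GRCm38.p6, on the minus strand. The windows of *Tmem254a* (chr14:25927673-25927922) and *Tmem254c* (chr14:26067426-26067675) are the same in all 250 bases. That of *Tmem254b* (chr14:26207026-26207275) shares a run of 234 bases with them. Capitals mark the 16 bases outside that run, at the 5′ end in the first line and at the 3′ end in the second, where the window of *Tmem254b* begins and ends 16 bases further downstream.
Tmem254a and Tmem254c: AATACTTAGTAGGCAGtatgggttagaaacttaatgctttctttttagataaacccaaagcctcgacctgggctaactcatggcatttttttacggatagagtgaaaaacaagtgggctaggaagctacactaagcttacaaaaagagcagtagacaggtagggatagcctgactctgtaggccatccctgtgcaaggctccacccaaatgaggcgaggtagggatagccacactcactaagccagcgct
Tmem254b: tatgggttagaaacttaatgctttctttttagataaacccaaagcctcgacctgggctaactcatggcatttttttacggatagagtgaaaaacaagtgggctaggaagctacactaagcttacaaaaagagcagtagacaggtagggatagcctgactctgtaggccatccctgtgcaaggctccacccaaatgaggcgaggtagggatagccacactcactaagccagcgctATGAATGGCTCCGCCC
No such window was given for the *Duxbl* genes.

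*Duxbl2* and *Duxbl3* had the same deposited values to the last digit, 107 in WT and 44.8 in Npffr1-KO, a log2 ratio of -1.26. Every 31-base word of *Duxbl2* occurs in *Duxbl3* and their listed lengths are both 2334 bases, so they are 1 measurement. The counts and medians over 8 members include both. Counted once, they leave 5 of 7 members at least 1.5-fold lower, 1 higher, and a median log2 ratio of -0.72. Each was assigned 100, 116 and 120 reads in WT libraries A, B and C and 43, 53 and 29 in Npffr1-KO. These reads too were 1 of 2 matching combinations, kept by the same rule on direction and size, and this choice was not tested. All 3 Npffr1-KO libraries lay below all 3 WT libraries, as in 7.82% of the 1126 genes with a mean of 10 to 25. The share at the higher mean of this pair is unknown, and the pair was chosen for its difference. The normalized means were 110 ± 11.7 (SD, n = 3) in WT and 42.2 ± 10.9 (SD, n = 3) in Npffr1-KO, a log2 ratio of -1.38. Without Npffr1-KO library A it was -1.37. That library, with 41.4 normalized reads, lay between the other Npffr1-KO libraries, with 53.5 and 31.6.

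*Duxbl1*, the copy in the first unit, had 0, 25 and 19 reads in the WT libraries and none in any Npffr1-KO library. The deposited Npffr1-KO value of 4.03 thus stands for no read at all, and comes from the fitted fold change. WT library A also had none, so the groups touch. A count of 0 over the Npffr1-KO libraries was taken to allow at most 3 reads. Against that, with the mean of the WT libraries held fixed, *Duxbl1* was at least 14.1-fold lower in Npffr1-KO. This bound covers counting error in Npffr1-KO only, not the spread of the WT libraries or the assignment of shared reads. Without WT library B the bound is 9.23-fold, without WT library A 21.2-fold, and without Npffr1-KO library A, B or C it is 9.17-fold, 9.37-fold or 9.76-fold. Since 95.9% of the 31-base words of *Duxbl1* occur in copies of its family, its reads also depend on how shared reads were assigned. Summed over the 3 copies, the libraries had 200, 257 and 259 *Duxbl* reads in WT and 86, 106 and 58 in Npffr1-KO. These sums rest on the combination kept for *Duxbl2* and *Duxbl3*. The normalized sums were 234 ± 35.4 (SD, n = 3) and 84.4 ± 21.9 (SD, n = 3), a log2 ratio of -1.47, or -1.46 without Npffr1-KO library A. *Cphx1*, the homeobox gene between *Tmem254a* and *Duxbl1*, had 0, 1 and 2 reads in WT and 0, 2 and 0 in Npffr1-KO, too few for a comparison.

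**Figure D3:**
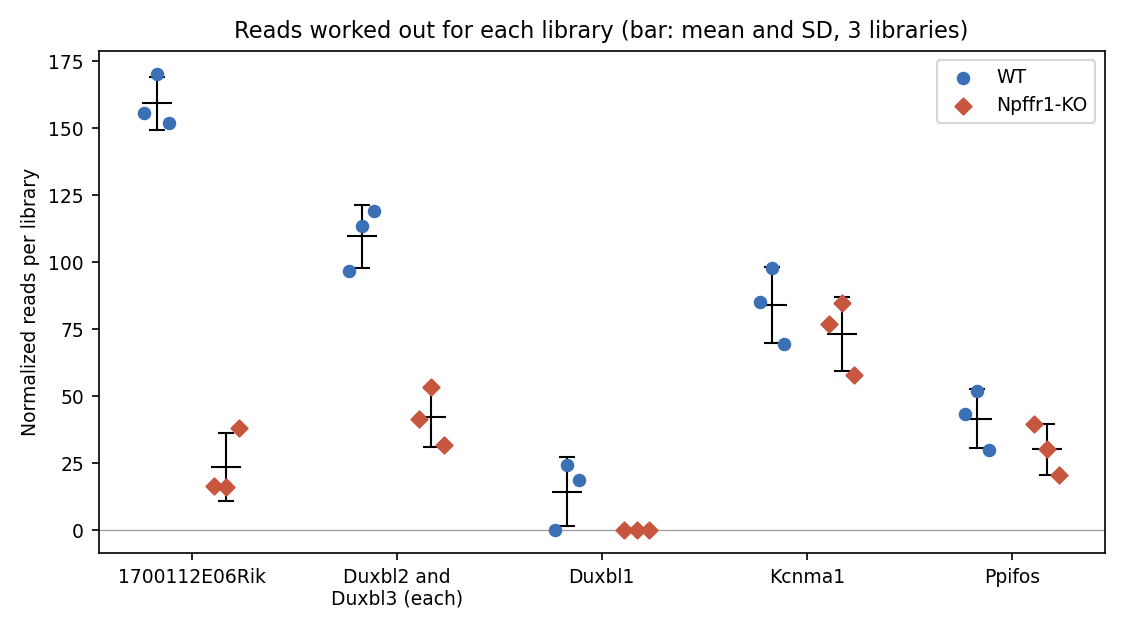
Normalized reads in each of the 3 WT (circles) and 3 Npffr1-KO (diamonds) libraries, with mean and SD. *1700112E06Rik* and the *Duxbl2* and *Duxbl3* pair, chosen for their differences, have no overlap between genotypes. Their reads are 1 of 2 matching combinations each, kept by the direction and size of the deposited log2 ratio. Npffr1-KO libraries all lay below WT in 7.82% of genes with a mean of 10 to 25. The nearby *Kcnma1* (57.8 to 84.8 in Npffr1-KO, 69.5 to 97.9 in WT) and *Ppifos*, which were not picked, overlap.

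**Figure D4:**
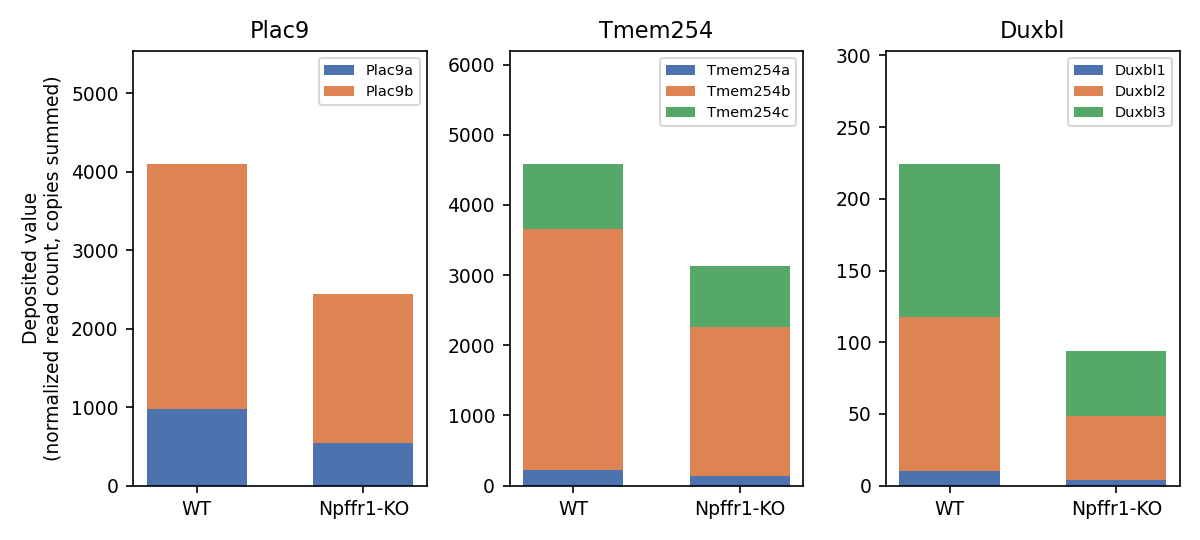
Deposited values in normalized read counts, stacked over the listed copies of each family, in WT and Npffr1-KO. The sums fall from 4103 to 2441 for *Plac9*, from 4590 to 3137 for *Tmem254* and from 225 to 93.7 for *Duxbl*.

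Genes downstream of *Dux*, a gene other than the *Duxbl* copies and no member, gave little to compare. Whether the *Duxbl* genes act on them was not tested. Of 22 genes picked as targets of *Dux* or of the embryo at the 2-cell stage, 7 were listed and 4 had a mean of at least 10. None of these 4 was past 1.5-fold, and their median log2 ratio was 0.28. The highest was *Sp110* with 1396 normalized counts in WT and 1862 in Npffr1-KO. Germ line markers were low as well, *Sycp3* being the highest with 63.9 and 51.7, and *Tnp1* was not listed.

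Genes that lie between the members are those left after the members were picked for their differences, so smaller differences among them follow from that choice. Between the first and the last member, 7 genes that are neither members nor copies had a mean of at least 10. None was past 1.5-fold, and their log2 ratios ran from -0.39 (*Ppifos*) to 0.36 (*Rps24*), with a median of -0.18. *Kcnma1*, a potassium channel gene that lies next to *1700112E06Rik*, had 88, 100 and 70 reads in WT and 80, 84 and 53 in Npffr1-KO, so the groups overlapped, with a log2 ratio of -0.20, or -0.24 without Npffr1-KO library A. On the other side of *1700112E06Rik*, *Zfp503* had a log2 ratio of -0.05. *Polr3a*, the gene after *Dlg5* with a mean of at least 10, had -0.11, and *Zmiz1* -0.23. *Zcchc24* and *Anxa11*, which lie between *Ppif* and *Plac9a*, had -0.18 and -0.04. Beyond the last member, *4933413J09Rik* had -0.16 and *Slmap* -0.18.

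In the stretch and within 2 Mb on either side of it, 51 genes that are no members had a mean of at least 10. Among the 51 genes, 9 lie inside the stretch, the copies *Tmem254a* and *Tmem254c* included, and were left after the members were picked. Of all 51, 2 were at least 1.5-fold lower and 1 higher, or 5.88%, near the 5.89% of all genes tested. This is not a share of the flanks alone. The lower ones were *Tmem254a* (-0.71), inside the stretch, and *Il17rd*, beyond its last member. *Il17rd*, a receptor gene of the interleukin 17 family, had 625 normalized counts in WT and 404 in Npffr1-KO (-0.63). The higher one was the muscle gene *Myoz1*, with 54 reads in Npffr1-KO library A, the library with the muscle transcripts. It had 0, 3 and 1 reads in the WT libraries and 2 in each of the other Npffr1-KO libraries. The median log2 ratio of the 51 genes was -0.08.

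**Figure D5:**
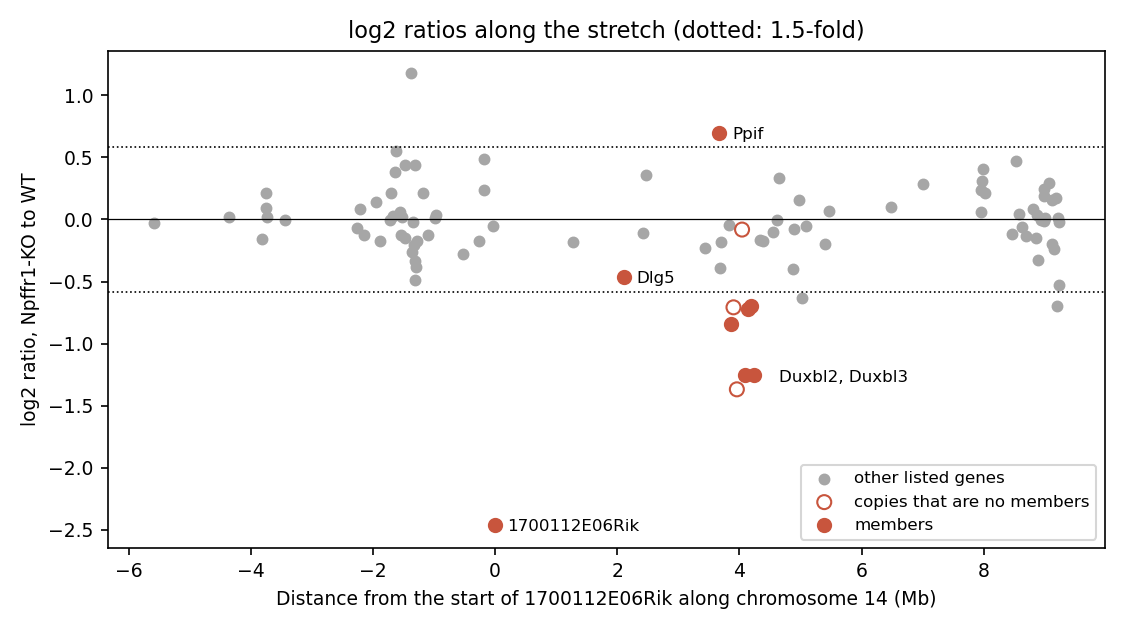
log2 ratio of Npffr1-KO to WT against distance from the start of *1700112E06Rik*, in Mb, for listed genes with a mean of at least 10 and for *Duxbl1*. Filled red points are members, open ones copies, and grey ones other genes, of which the one above 1 is *Myoz1* (1.18). The copies lie together from 3.87 to 4.24 Mb, all but *Tmem254c* below the dotted 1.5-fold line.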

How the data were processed

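Total RNA of iAT was sequenced from 3 WT and 3 Npffr1-KO samples. The submitters' processing notes name Bowtie2, RSEM and DESeq2, without versions or genome build. The deposited signal is a normalized read count, 1 value per gene and genotype, with no error beside it. Columns of the authors' fold changes and p-values, and a second table holding a subset of the genes, were not used.

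Values were read with pandas 2.3.3 and numpy 2.4.6. Log2 ratios of Npffr1-KO to WT were taken without pseudocount, for genes with a mean of at least 10, and 1.5-fold served as the call. Reads per library were searched over whole-number combinations that match the mean of both values, with size factors from genes with a single read, up to a mean of 100. Of 5650 genes with a mean up to 25, 5648 gave exactly 1 combination and 2 gave none. For *1700112E06Rik*, *Duxbl2*, *Duxbl3* and *Pmel*, 2 combinations matched each, of which 1 had the direction of the deposited log2 ratio and at least its size less 0.01. This rule on direction and size held for 100% of 1126 genes with a mean of 10 to 25. On simulated data, 89 of 99 genes like *Duxbl2* and 76 of 79 like *1700112E06Rik* gave 1 combination. Whether the combination kept for *1700112E06Rik*, *Duxbl2*, *Duxbl3* and *Pmel* themselves is the right one of the 2 was not tested. Means of *Dlg5*, *Ppif*, *Plac9a*, *Plac9b* and *Tmem254b* were too high for the search. Libraries are named by falling size factor. Coding sequences and words came from GENCODE M21 on GRCm38, upstream windows and gene order from RefSeq. The labels name no animal behind a sample. Named genes were the members, listed copies, neighbours past 1.5-fold, adjoining genes and up to 3 genes per list by mean. Members and lists were chosen with earlier results of these data known. Alternatives covered pseudocount, centring, fold, minimum mean, window, word length, summed copies and libraries left out.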

Additional observations from a re-analysis of the deposited data

How the results depend on the processing

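No member changed direction under another pseudocount or centring. With a pseudocount of 10 the log2 ratio of *1700112E06Rik* was -2.11. Centred on genes of like length, *Dlg5* stood at -0.32, *Ppif* at 0.58, *Plac9a* at -1.10, *Plac9b* at -0.93 and *Tmem254b* at -0.81, and 0 members were then past 1.5-fold higher. At 2-fold, 3 members were lower (0.314% of all genes) and 0 higher (0.483% of all genes), or 2 lower with *Duxbl2* and *Duxbl3* counted once, an alternative chosen after seeing the data. With copies summed, the log2 ratio was -0.75 for *Plac9*, against -0.84 for *Plac9a* alone, and -0.55 for *Tmem254*, against -0.70 for *Tmem254b* and -0.08 for *Tmem254c*. Of the neighbouring genes in the stretch and within 2 Mb of it, 0 were lower at 2-fold. At the lowest fold tried, 7 of the 51 were lower (11.6% of all genes) and 8 higher (12.0% of all genes). None was higher (0) with a minimum mean of 50, with a pseudocount of 10 or within 1 Mb. With longer words, *1700112E06Rik* shared 0% at 50 and 75 bases, *Dlg5* 0.940% and 0.644%, and *Ppif* 15.1% at 75 bases. Leaving out each library in turn gave log2 ratios from -3.29 to -2.54 for *1700112E06Rik* and from -1.59 to -1.21 for *Duxbl2* and *Duxbl3*, and, chosen after seeing the data, from -1.68 to -1.30 for the summed *Duxbl* copies. No paired analysis was possible because the table gives 1 value per genotype and the libraries worked out are not tied to replicate numbers. For members above a mean of 100 the spread between libraries, and so the precision of their ratios, is unknown.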
